A study of Mus musculus with 15 samples.

Results

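The granins and the enzymes that cut peptides out of their precursors were followed across 5 pools of mouse spinal motor neurons. The set held 10 genes of the 36810 in the count table, namely the granins Chga, Chgb, Scg2, Scg3, Scg5 and Vgf, the prohormone convertases Pcsk1 and Pcsk2, the carboxypeptidase Cpe and the amidating enzyme Pam. They were taken by symbol, as a family chosen with earlier results of these data known, each was found in the table, and 10 of 10 passed the filter on low counts. A motor pool is the group of motor neurons that supplies 1 muscle. In wild-type mice, 1 muscle was injected at p4 with the fluorescent retrograde tracer CTB-555, and the labelled cells were cut out of 12 µm spinal cord sections by laser capture at p6. Of the muscles supplied, TA is tibialis anterior, EDL is the long digit extensor extensor digitorum longus, PL is peroneus longus, GS is gastrocnemius, and IF stands for the small muscles within the foot. Each pool had 3 libraries of bulk RNA, 15 in all. A library held 30 to 40 cells combined from 2 to 5 animals, so it is a mixture of animals and of whatever lay within the captured area, and no pool was untreated or unlabelled.

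Granins are acidic proteins that are packed with neuropeptides and hormones in dense core vesicles, the vesicles of the regulated secretory pathway, and several are themselves cut into peptides. A peptide precursor is first cleaved after paired basic residues by a convertase, the basic residues left at the new end are then removed by a carboxypeptidase, and the end may last be amidated. Motor neurons release acetylcholine from small vesicles and also carry neuropeptides such as those from Calca in dense core vesicles.

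The promoter sequences of 3 members are shown because they share 1 regulatory word while the levels of the 3 genes across the pools, given further on, were unlike. RefSeq promoter windows of the GRCm38.p6 assembly, each of 300 bases running from 250 bases before to 50 bases after the annotated start, were found for 8 of the 10 members. The 8 letters TGACGTCA, the full cyclic AMP response element to which CREB family factors are known to bind, were searched for. This word is its own reverse complement, so that 1 search covers both strands. It was present in 3 of these 8 members, Scg2, Chgb and Pcsk1, and in 549 of all 27025 genes with a window (2.03%). Vgf and Cpe had no window, so the word was not searched for in them. The lines below give the gene strand 5′ to 3′, with the word in capitals; Scg2 lies at chr1:79439977-79440276 on the minus strand, Chgb at chr2:132781392-132781691 on the plus strand and Pcsk1 at chr13:75089607-75089906 on the plus strand.
Scg2: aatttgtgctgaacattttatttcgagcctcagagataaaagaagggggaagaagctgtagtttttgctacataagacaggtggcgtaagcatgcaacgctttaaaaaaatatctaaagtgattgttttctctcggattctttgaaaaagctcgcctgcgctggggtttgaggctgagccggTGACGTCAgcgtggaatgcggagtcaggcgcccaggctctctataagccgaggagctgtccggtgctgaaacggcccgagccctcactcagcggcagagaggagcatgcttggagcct
Chgb: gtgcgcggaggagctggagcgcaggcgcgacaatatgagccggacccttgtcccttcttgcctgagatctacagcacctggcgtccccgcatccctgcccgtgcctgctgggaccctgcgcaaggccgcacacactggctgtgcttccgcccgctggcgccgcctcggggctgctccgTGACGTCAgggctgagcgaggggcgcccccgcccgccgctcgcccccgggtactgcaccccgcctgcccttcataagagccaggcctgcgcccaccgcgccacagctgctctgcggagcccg
Pcsk1: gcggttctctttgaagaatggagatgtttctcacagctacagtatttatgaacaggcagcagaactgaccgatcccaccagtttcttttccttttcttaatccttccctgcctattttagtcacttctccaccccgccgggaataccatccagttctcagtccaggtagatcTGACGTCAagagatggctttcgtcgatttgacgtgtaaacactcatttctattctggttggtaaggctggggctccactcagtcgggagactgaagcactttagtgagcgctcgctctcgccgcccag
The word began 68 bases before the start in Scg2, 72 in Chgb and 78 in Pcsk1. A match describes the letters in this window and no binding was measured.

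Gene counts summed to between 4417114 and 8488368 reads per library. PL libraries 2 and 3 stood apart from the other 13, with 11019 and 10548 genes detected against 13092 to 17321, and with 25.7% and 29.2% of the genes tested listed at 0 reads against 0.732% to 13.7%. Results that rest on PL are therefore also given without these 2 libraries. Of 12 motor neuron markers, 11 had reads in every library, and the remaining one, Isl1, had 51.4 to 115 CPM (reads per 1000000 gene reads, scaled by the trimmed mean of M-values, TMM) in the 6 GS and IF libraries and at most 0.566 CPM in the 9 TA, EDL and PL libraries. The 8 astrocyte markers summed to between 2020 and 4159 CPM and had reads in every library. Bulk levels cannot tell fewer cells of a type from less RNA per cell.

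Compared per length, the granins and Cpe were among the most abundant transcripts of these neurons while both convertases and Pam were low. Mean RPKM (reads per kilobase of gene and per 1000000 reads, the authors' values) over the 15 libraries was 154 ± 67.4 for Cpe, 98.7 ± 48.7 for Chgb, 95.5 ± 39.2 for Scg5, 74.3 ± 21.8 for Chga, 73.8 ± 52.2 for Scg2, 55.7 ± 29.5 for Scg3 and 35.0 ± 15.1 for Vgf (SD, n = 15). These 7 genes had a mean RPKM above that of 96.6% to 99.6% of the 20453 genes with at least 1 read. Pcsk2 averaged 2.05 ± 1.50 RPKM, Pam 0.984 ± 0.669 RPKM and Pcsk1 0.111 ± 0.177 RPKM (SD, n = 15), above 58.9%, 47.2% and 24.0% of those genes. The CPM values in each library are plotted by pool.

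**Figure D1:**
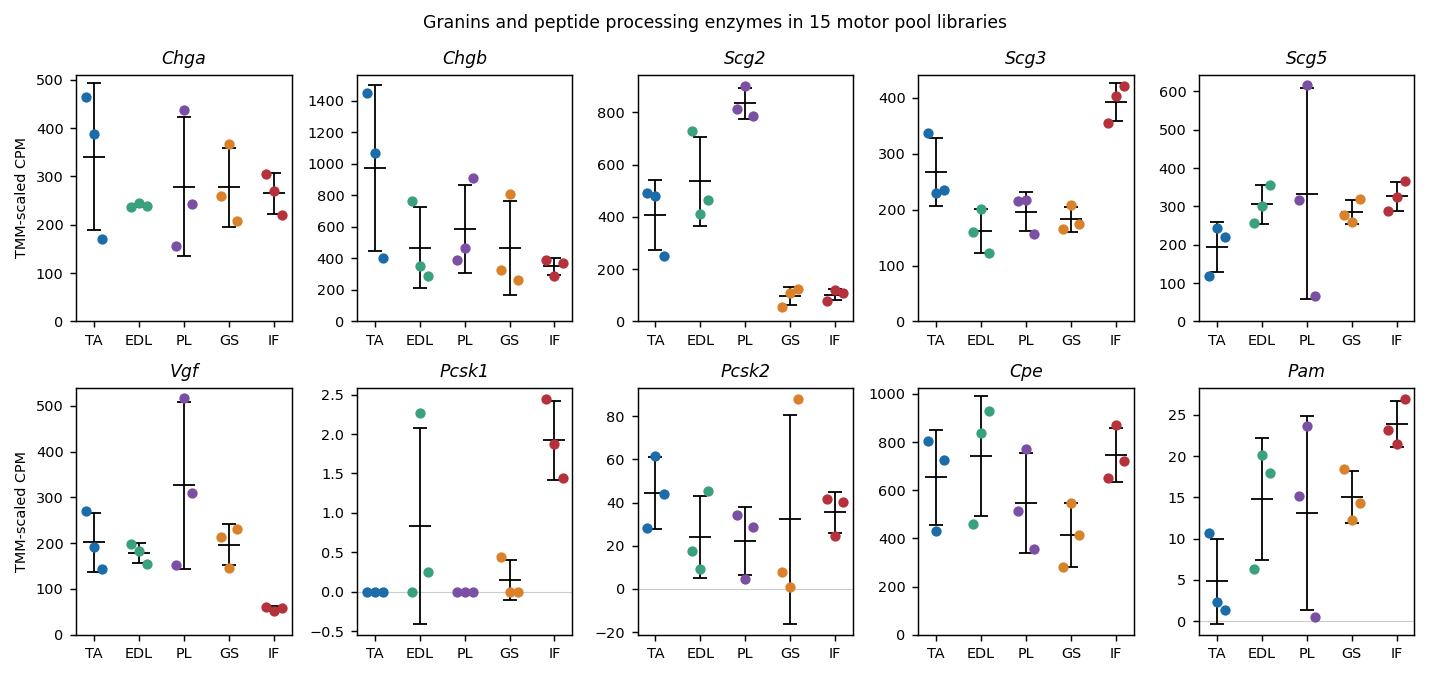
TMM-scaled CPM (linear axis) of the 10 members in the 15 libraries by pool, 1 point per library in replicate order; the black bar is the mean and its whiskers the SD of 3 libraries. Scg2 lies at 252 to 903 CPM in TA, EDL and PL and at 57.0 to 126 CPM in GS and IF, Vgf lies lowest in IF and Scg3 highest in IF, while no pool lies wholly apart from all the others for Chga, Chgb, Pcsk2 and Cpe.

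Whether any member differed among the 5 pools was asked in 1 edgeR quasi-likelihood fit of all genes, with Benjamini-Hochberg adjustment. Scg2 (adjusted p = 0.0001971) and Vgf (adjusted p = 0.04119) were called, 2 of 10 members, where 1.31% of all 14340 genes tested were called. Scg3 (adjusted p = 0.1066), Pcsk1 (0.2539), Chgb (0.3598), Cpe (0.5135), Pam (0.785), Scg5 (0.8719), Chga (0.9583) and Pcsk2 (0.9826) were not. DESeq2 also called Scg3 (adjusted p = 0.003912), where it called 8.69% of all genes. Contrasts of 1 pool with the average of the remaining 4 gave 6 calls in all, 3 for Scg2, 2 for Vgf and 1 for Scg3.

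Scg2, whose product secretogranin II is cut to give the peptide secretoneurin, divided the pools into a high and a low group. The gene (ENSMUSG00000050711) lies at chr1:79431244-79436666 on the minus strand in mm9, the build of the count table, and overlaps no other annotated gene. TA libraries 1 to 3 had 492, 480 and 252 CPM, EDL libraries had 730, 413 and 465 CPM, and PL libraries had 813, 903 and 788 CPM. GS libraries had 57.0, 108 and 126 CPM, and IF libraries had 80.2, 120 and 107 CPM. The 9 TA, EDL and PL libraries all lay above the 6 GS and IF libraries, which are the libraries with Isl1 reads above 50 CPM. In descending order the pool means were 835 ± 60.5 CPM in PL, 536 ± 170 in EDL, 408 ± 135 in TA, 102 ± 20.2 in IF and 97.0 ± 35.8 in GS (SD, n = 3 each). Of the 4 steps between neighbours in this order, the step between TA and IF was called, with a log2 difference of 1.99 ± 0.37 (SE, adjusted p = 0.01057), and the adjusted p-values of the other 3 steps were 0.3932, 0.8694 and 0.9999.

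Against the mean of the other pools, Scg2 was higher in PL by 1.95 ± 0.25 on the log2 scale (SE, adjusted p = 0.00049), lower in GS (log2 fold change -1.93 ± 0.32, adjusted p = 0.02447) and lower in IF (-1.83 ± 0.32, adjusted p = 0.006869). The shares of all genes called in these comparisons were 4.87% for PL, 0.126% for GS and 1.1% for IF. EDL gave 1.15 ± 0.26 (adjusted p = 0.1152) and TA 0.66 ± 0.27 (adjusted p = 0.3221), neither past the threshold. Of the 10 pairs of pools, Scg2 passed in 6, and these were the 6 that set TA, EDL or PL against GS or IF, where 0.248% of all gene and pair combinations were called. The log2 differences were 3.10 ± 0.38 for PL against GS (adjusted p = 0.0008121), 3.03 ± 0.38 for PL against IF (0.0005533), 2.47 ± 0.37 for EDL against GS (0.008335), 2.39 ± 0.37 for EDL against IF (0.004989), 2.07 ± 0.37 for TA against GS (0.03508) and 1.99 for TA against IF as above. The 4 pairs within either side had adjusted p-values of 0.181 to 0.9999. Without PL libraries 2 and 3, PL rests on 1 library that is assumed to vary as the libraries of the other pools do, here and wherever PL is given without them. Its difference from the other pools was then 1.91 (adjusted p = 0.06284), while the GS and IF differences were -1.92 (0.01512) and -1.80 (0.005403). The call for GS against the other pools was lost in 7 of 23 alternatives, and the call for IF in the 3 that left out 1 IF library. In those 3 fits 0.207% to 0.247% of all genes were called in IF. Of the 6 pairs, TA against GS was lost in 13 of 24 alternatives, TA against IF in 5, EDL against GS in 3, EDL against IF and PL against GS in 1 each and PL against IF in 0.

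The authors' deposited table of genes past their own DESeq threshold was made for pairs of pools. It names Scg2 in 3 of its 16 lists and no other member in any. The lists hold 8 to 80 genes each, so most genes are in none. In the authors' deposited table Scg2 was 5.25-fold higher in EDL than in IF (adjusted p = 3.42e-09), 4.12-fold higher in TA than in GS (0.02678) and 3.97-fold higher in TA than in IF (0.00985). Scg2 is not in the authors' deposited list of 26 genes higher in PL than in IF. None of the 16 lists sets EDL or PL against GS, so Scg2 could not be named for those pairs.

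Vgf, an inducible granin-like precursor cut into several peptides, was lowest in the foot pool. It (ENSMUSG00000037428) lies at chr5:137506165-137509222 on the plus strand in mm9, with no overlapping gene. IF libraries had 61.2, 52.5 and 58.4 CPM, against 271, 192 and 143 CPM in TA, 198, 184 and 154 CPM in EDL, 152, 516 and 310 CPM in PL and 214, 146 and 231 CPM in GS. Every IF library lay below the 12 others, and its SD within the pool was 4.45 CPM. Vgf was lower in IF than in the other pools by a log2 fold change of -1.93 ± 0.37 (SE, adjusted p = 0.0128), and -1.63 (adjusted p = 0.004812) without PL libraries 2 and 3; the adjusted p was 0.1044 to 0.1436 when 1 IF library was left out. In the order of means, PL had 326 ± 183 CPM, TA 202 ± 64.3, GS 197 ± 44.9, EDL 179 ± 22.5 and IF 57.4 ± 4.45 (SD, n = 3 each), and no step between neighbours was called, the step between EDL and IF being 1.64 ± 0.42 on the log2 scale (adjusted p = 0.2344). The pair PL against IF was called, with 2.51 ± 0.43 (adjusted p = 0.00716), and had adjusted p-values of 0.0743 to 0.1104 when 1 IF library was left out. The call for any difference was lost in 13 of 23 alternatives, with adjusted p-values between 0.0006542 and 0.2044.

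Vgf in PL was decided by the libraries that stood apart. PL libraries 2 and 3 had 516 and 310 CPM and PL library 1 had 152 CPM, within the 143 to 271 CPM of TA, EDL and GS. These CPM rest on TMM factors of 0.710 and 0.670 for PL libraries 2 and 3, the lowest of all libraries. In the authors' RPKM, which are not TMM-scaled, PL libraries 1 to 3 had 30.5, 67.9 and 38.3. There only PL library 2 lay above the 23.5 to 53.3 of TA, EDL and GS. The difference of PL from the other pools was 1.20 ± 0.30 on the log2 scale (adjusted p = 0.02635) with all libraries and 0.09 (adjusted p = 1) without PL libraries 2 and 3. It was 0.70 (adjusted p = 0.2385) without PL library 2 alone. The pair PL against IF then had 1.38 (adjusted p = 0.5787) without both.

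Scg3, which binds the chromogranins and the vesicle membrane, was highest in the foot pool. It (ENSMUSG00000032181) lies at chr9:75491071-75531804 on the minus strand in mm9, with no overlapping gene. IF libraries had 355, 402 and 420 CPM, against 336, 229 and 234 CPM in TA, 159, 202 and 123 CPM in EDL, 215, 218 and 156 CPM in PL and 166, 208 and 174 CPM in GS. The lowest IF library lay above the highest of the 12 others, TA library 1, by a small margin. Scg3 was higher in IF by 0.99 ± 0.23 on the log2 scale (SE, adjusted p = 0.04674), a call that was lost in 13 of 23 alternatives with the difference between 0.95 and 1.31 in all of them, and with adjusted p-values of 0.163, 0.2814 and 0.3216 when IF library 1, 2 or 3 was left out. Mean levels were 392 ± 33.8 CPM in IF, 267 ± 60.5 in TA, 196 ± 34.7 in PL, 183 ± 22.2 in GS and 161 ± 39.4 in EDL (SD, n = 3 each), and none of the 4 steps between neighbours was called. Its spread within pools was small, with an SD of 0.26 on the log2 scale, and 95.9% of the 2182 genes tested with a mean of at least 100 CPM had a larger one.

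Marker transcripts of some other cell types, but not all, were low in the IF libraries, where Scg2 and Vgf were low and Scg3 high. The 10 oligodendrocyte markers summed to 224 to 237 CPM in IF libraries, with 1 of the 10 at 0 in each, against 304 to 2345 CPM in the other 12 libraries, with 0 to 2 at 0. The 7 spinal interneuron markers summed to 34.8 to 71.0 CPM in IF libraries against 120 to 374 CPM in the others, with 0 to 1 and 0 to 4 of the 7 at 0, and the 8 astrocyte markers to 2020 to 2302 CPM in IF libraries against 2254 to 4159 CPM, with none at 0. Their part in the IF results was not tested.

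**Figure D2:**
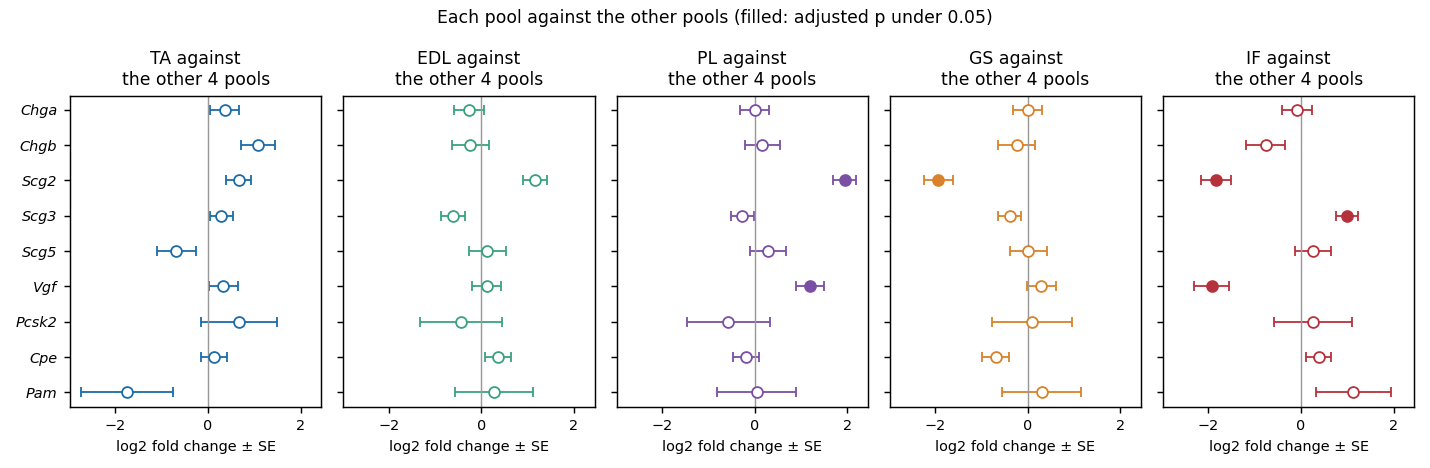
Log2 fold change (x axis) of 9 members in a pool relative to the average of the remaining 4; points are estimates, whiskers the SE, and filled points have an adjusted p under 0.05 in edgeR's quasi-likelihood test. Pcsk1 is left out because 2 pools have no read; Scg2 is called in PL, GS and IF, Vgf in PL and IF, and Scg3 in IF.

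No member was called in TA or in EDL against the other 4 pools, where 0.418% and 0.0976% of all genes were called. At an unadjusted p under 0.05 there were 2 members in TA and 3 in EDL by edgeR. The share of all genes at that unadjusted threshold was not counted, here or for the lists below. Such counts therefore cannot be called more than usual. DESeq2 called 0 in both, where it called 3.14% and 0.495% of all genes. By limma voom 0 were called in TA (0.774% of all genes) and 1, Scg2, in EDL (0.265%). Over the 10 members the median log2 fold change was 0.31 in TA, 0.12 in EDL, 0.02 in PL, 0.00 in GS and 0.26 in IF, against medians of 0.06, 0.06, -0.06, 0.04 and 0.02 over all genes tested.

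The chromogranins Chga and Chgb, the classical granins of dense core vesicles, were abundant in every pool and were not called in any comparison with the filter on low counts. Chga libraries in TA had 464, 387 and 170 CPM, those in EDL 237, 244 and 239, those in PL 156, 438 and 243, those in GS 259, 367 and 207, and those in IF 304, 269 and 220 CPM. The range of TA covered every other library except PL library 1. Chga means ran from 340 ± 152 CPM in TA to 240 ± 3.73 CPM in EDL (SD, n = 3), and the adjusted p-values of neighbouring pools were 0.7554 to 1.0.

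Chgb, the more variable of the pair, had 1448, 1067 and 404 CPM in TA libraries, 762, 350 and 291 in EDL, 388, 465 and 909 in PL, 325, 812 and 265 in GS and 388, 286 and 374 in IF. Each pool but IF had 1 or 2 libraries well above the rest, and TA library 3 lay among the other pools. TA averaged 973 ± 528 CPM (SD, n = 3), and its difference from the other pools was 1.08 ± 0.36 on the log2 scale (SE, adjusted p = 0.2298); with no filter on low counts Chgb was the single member called in TA, where 2.41% of all genes were then called, and was called for any difference (adjusted p = 0.0253, with 6.97% of all genes called).

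Scg5 encodes 7B2, the chaperone that the convertase encoded by Pcsk2 needs to mature. It had 316, 616 and 67.1 CPM in PL libraries, the last 2 being its highest and lowest values anywhere and a 9.18-fold range within 1 pool. The other pools held 119, 243 and 220 CPM in TA, 257, 302 and 357 in EDL, 278, 258 and 319 in GS and 288, 325 and 365 in IF. Scg5 means were 333 ± 275 CPM in PL, 326 ± 38.6 in IF, 305 ± 49.9 in EDL, 285 ± 30.8 in GS and 194 ± 66.0 in TA (SD, n = 3 each), with adjusted p-values of 0.9463 to 1.0 between neighbours.

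Per length, Scg2 took a larger share of the granin sum in PL, EDL and TA than in IF and GS. The 6 granins summed to 428 ± 139 RPKM in TA, 493 ± 43.4 in EDL, 424 ± 92.5 in PL, 371 ± 61.9 in GS and 449 ± 25.6 in IF (SD, n = 3 each). The range of 465 to 543 RPKM in EDL lay above the 302 to 421 RPKM in GS, and every other pair of pools overlapped. Scg2 made up 30.8 ± 5.57% of that sum in PL, 25.0 ± 3.88% in EDL, 16.1 ± 1.06% in TA, 5.77 ± 1.13% in IF and 5.64 ± 2.21% in GS. Scg3 made up 24.4 ± 1.66% in IF against means of 8.02% to 12.3% in the other pools, and Vgf made up 3.15 ± 0.25% in IF against means of 7.86% to 11.6%. The granin with the highest RPKM was Scg5 in 8 libraries, all 3 of IF among them, Chgb in 5, all 3 of TA among them, and Scg2 in 2, namely 1 EDL and 1 PL library. These shares restate the levels above on another scale and were not tested.

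**Figure D3:**
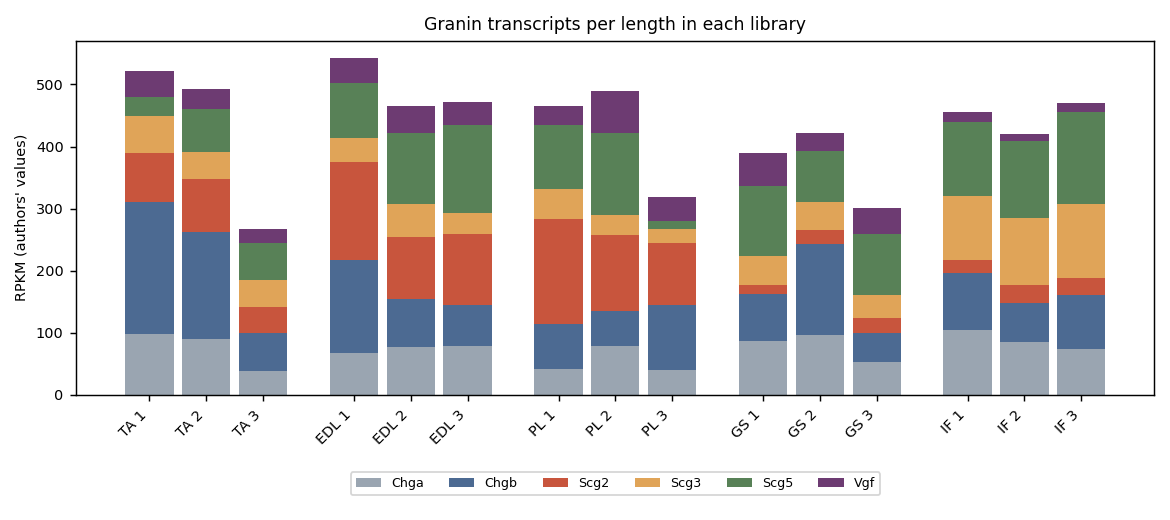
RPKM of the 6 granins stacked for each library (bars start at 0), libraries grouped by pool; no error is drawn because each bar is 1 library. The Scg2 segment is narrow in GS and IF, and the Scg3 segment is widest in IF.

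The convertases were scarce, and nearly all their reads came from Pcsk2. Over the 15 libraries Pcsk2 had 3291 reads and Pcsk1 had 74. Pcsk1, the convertase often called PC1/3, had 24, 15 and 10 reads in the 3 IF libraries, 0, 20 and 2 in EDL and 3, 0 and 0 in GS, and none in the 3 TA and 3 PL libraries. Levels were 2.44, 1.87 and 1.45 CPM in IF and 2.26 CPM in EDL library 2; a count of 0 allows up to 3 reads, or 0.509 to 0.542 CPM in TA and 0.325 to 0.958 CPM in PL, counting error alone. EDL library 2 overlaps the IF range, and neither the comparison of IF with the other pools (adjusted p = 0.1351) nor any pair was called. Pcsk1 passed the filter on low counts because of the pools in which it had reads.

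Pcsk2, or PC2, was read in 15 of 15 libraries at very uneven levels. TA libraries had 28.3, 61.4 and 43.8 CPM, EDL 17.5, 9.28 and 45.4, PL 34.0, 4.47 and 28.5, GS 8.04, 0.851 and 88.0 and IF 41.9, 24.5 and 40.1 CPM. GS alone held both its lowest and its highest value, a 103-fold range, and the SD within pools was 1.53 on the log2 scale. Pool means of Pcsk2 ran from 44.5 ± 16.6 CPM in TA to 22.3 ± 15.7 CPM in PL (SD, n = 3), and no step was called. The opposite strand of Pcsk2 carries 2 annotated genes with 711 reads of their own, and the library kit did not mark strand, so that shared reads cannot be told apart.

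Cpe, the carboxypeptidase that trims basic residues from most neuropeptide intermediates, had the highest level per length of the 10 members. It had 804, 431 and 725 CPM in TA libraries, 461, 838 and 927 in EDL, 514, 770 and 356 in PL, 280, 545 and 412 in GS and 652, 869 and 719 in IF. The 3 GS libraries lay below the 3 IF libraries, and every other pair of pools overlapped. Means were 747 ± 111 CPM in IF, 742 ± 247 in EDL, 653 ± 197 in TA, 547 ± 209 in PL and 413 ± 133 in GS (SD, n = 3 each); GS against the other pools gave -0.69 ± 0.30 on the log2 scale (SE, adjusted p = 0.7739) and GS against IF gave -0.86 ± 0.36 (adjusted p = 0.9999).

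Pam, which amidates the ends of peptides, had 23.1, 21.5 and 26.9 CPM in IF libraries, 18.4, 12.3 and 14.4 in GS, 6.37, 20.1 and 17.9 in EDL, 15.2, 23.6 and 0.441 in PL and 10.7, 2.35 and 1.41 in TA. The IF libraries were above all others except PL library 2, and PL library 3 was the lowest of the 15, giving PL a 53.6-fold range. Pam averaged 23.8 ± 2.78 CPM in IF and 4.81 ± 5.11 CPM in TA (SD, n = 3 each), with log2 differences from the other pools of 1.13 ± 0.81 in IF (adjusted p = 0.8191) and -1.75 ± 0.99 in TA (adjusted p = 0.5105). Pam overlaps 4 other annotated genes with 2825 reads in all, more than the 1547 of Pam itself.

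The genes whose levels followed each member most closely were ranked by Pearson's r of log2(CPM + 1), taking the smaller of r over the 15 libraries and r over the 13 without PL libraries 2 and 3; r over 15 is printed. This is a description, since the libraries share depth and preparation. For Scg2 these were Alcam (r = 0.942), an adhesion molecule, Plxna2 (0.924), a semaphorin receptor, and Prune2 (0.904). For Vgf they were Aldh1a2 (0.904), which makes retinoic acid, Cabp7 (0.919) and Cacng5 (0.883). Aldh1a2 had 3.77, 4.37 and 1.45 CPM in IF libraries against 177 to 906 CPM in the other 12, so that it separates IF from the rest as Vgf does. Chgb was followed by Ik (0.962) and the neurofilament gene Nefm (0.932), Scg5 by Isca1 (0.961), Pam by Fam19a2 (0.948), and Pcsk1 by the neuropeptide precursor Vip (0.934). Vip had 47.3, 54.9 and 63.4 CPM in IF libraries and 16.4 CPM in EDL library 2, against at most 1.39 CPM in the other 11, the same 4 libraries that had 10 or more reads of Pcsk1. For Scg3, Chga, Pcsk2 and Cpe the first-ranked genes were Scoc, Plrg1, Ltn1 and Kifap3, with r of 0.781, 0.849, 0.771 and 0.722.

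Neuropeptide precursors are the substrates of these enzymes. Of 20 precursors found, 17 were tested and 5 were called for any difference, namely Calca, Nts, Sst, Tac1 and Vip, where 1.31% of all genes were called. Against the other pools, TA had 2 higher (Calca, Sst), EDL had Nts higher and Sst lower, PL had Nts higher and Sst and Pthlh lower, GS had Sst higher, and IF had 4 higher (Vip, Tac1, Gal, Cartpt) and 2 lower (Calca, Nts); the shares of all genes called were those given above. Without PL libraries 2 and 3 the call of Pthlh in PL was lost, and the calls of Gal and Cartpt in IF were lost both without those libraries and by DESeq2. Gal had 23, 56 and 41 reads in IF libraries 1 to 3 and at most 5 in any other library. Cartpt had 61, 48 and 38 reads in IF libraries, 38 and 14 in EDL libraries 2 and 3, and at most 2 elsewhere. Both passed the filter on low counts because of the pools in which they had reads, among them IF, the pool tested. Nts had 514 ± 74.5 CPM in EDL and 233 ± 18.2 CPM in PL, against 32.8 ± 11.3 CPM in TA, 36.6 ± 14.4 CPM in GS and 3.95 ± 1.51 CPM in IF (SD, n = 3 each). Sst averaged 1761 ± 734 CPM in GS (SD, n = 3), while Scg2 was low in that pool, as it was in IF.

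Other enzymes that trim or modify peptides showed few calls. Of 20 genes found, 15 were tested; none was called for any difference by edgeR or limma voom (5 had an unadjusted p under 0.05) and 2 were called by DESeq2, which called 8.69% of all genes for any difference. Against the other pools, Qpctl, a glutaminyl cyclase of the Golgi (log2 fold change 2.99 ± 0.59, adjusted p = 0.008212), and Cpa4, a carboxypeptidase (4.38 ± 1.09, adjusted p = 0.02885), were higher in PL. Qpctl had 14.9, 395 and 58.2 CPM in PL libraries 1 to 3, against 6.86 to 34.2 CPM elsewhere, and Cpa4 had 4.44, 0.319 and 30.0 CPM in PL libraries, against 0 to 14.2 CPM elsewhere. Pcsk1n, which encodes proSAAS, a granin-like inhibitor of the Pcsk1 enzyme, is named after its values were seen: PL libraries had 119, 796 and 476 CPM, against 136 to 323 CPM in the other 12, a log2 difference of 1.19 ± 0.34 (adjusted p = 0.0501). Furin, a convertase of the general secretory route, had 34.4, 115 and 0.221 CPM in PL libraries, against 5.79 to 40.7 CPM in the others, and was not called (adjusted p = 0.248 for PL); it too is named after its values were seen.

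Of the genes listed for building or releasing dense core vesicles, those called by edgeR were higher in PL, where 4.87% of all genes were called and 646 of the 698 called were higher. For biogenesis and membrane proteins, 17 of 17 genes were tested and Bace1, a protease of the late secretory route, was called (1.32 ± 0.31, adjusted p = 0.01862). Bace1 had 248, 381 and 975 CPM in PL libraries, against 137 to 416 CPM in the other 12, so only PL library 3 lay above them. For priming, transport and release, 27 of 29 genes were tested and 4 were called, all higher in PL: Cadps, the vesicle priming factor (0.97 ± 0.24, adjusted p = 0.02374), Vamp2, the vesicle SNARE (1.07 ± 0.28, 0.03387), Rab3c (0.92 ± 0.25, 0.04058) and Snap47 (1.40 ± 0.39, 0.04755). DESeq2 called 6 of them in PL, 4 higher and 2 lower, where it called 12.8% of all genes. Syt1 was called higher in IF by DESeq2 and by limma voom, where 1.79% and 1.94% of all genes were called. Cadps had 695, 1146 and 1594 CPM in PL libraries, against 452 to 959 CPM in the other 12, and Snap47 had 375, 401 and 2314 CPM in PL libraries. Vamp2 had 309, 697 and 472 CPM in PL libraries, against 141 to 410 CPM in the other 12. Rab3c had 450, 589 and 1192 CPM in PL libraries, against 324 to 536 CPM. On the scale of the authors' RPKM, which are not TMM-scaled, the PL libraries stood out less. Vamp2 there had 41.5, 61.2 and 38.9 in PL libraries, against 17.6 to 43.0 in the other 12. Rab3c had 25.9, 22.2 and 42.1 RPKM in PL libraries, against 14.6 to 28.6. Neither list had a call for any difference by edgeR or limma voom, with 3 and 9 genes at an unadjusted p under 0.05; DESeq2 called 1 and 3, beside the same 8.69% of all genes. Of 16 peptide breakdown enzymes tested out of 17, Enpep was higher in PL (3.12 ± 0.76, adjusted p = 0.02347) with 28.4, 10.5 and 118 CPM, and Dpp4 was higher in TA (7.29 ± 1.35, adjusted p = 0.02292) with 81.1, 5.06 and 0.352 CPM in its libraries, so that TA library 1 held 478 of the 508 TA reads. None was called for any difference by edgeR or limma voom (4 at an unadjusted p under 0.05), and DESeq2 called 3, with that same share of all genes.

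Without PL libraries 2 and 3, 0 genes of these 4 lists were called in PL, but then PL was 1 library and 0.061% of all genes were called, so that the count says little about the lists. By limma voom 0 were called in PL, where it called 1.19% of all genes. The 10 oligodendrocyte markers summed to 434, 2345 and 728 CPM in PL libraries 1 to 3, the 7 endothelial markers to 42.8, 685 and 29.3 CPM and the 8 microglial markers to 10.5, 52.1 and 211 CPM, with 1 to 2, 0 to 3 and 4 to 6 markers at 0. The part of these transcripts in the PL results was not tested.

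**Figure D4:**
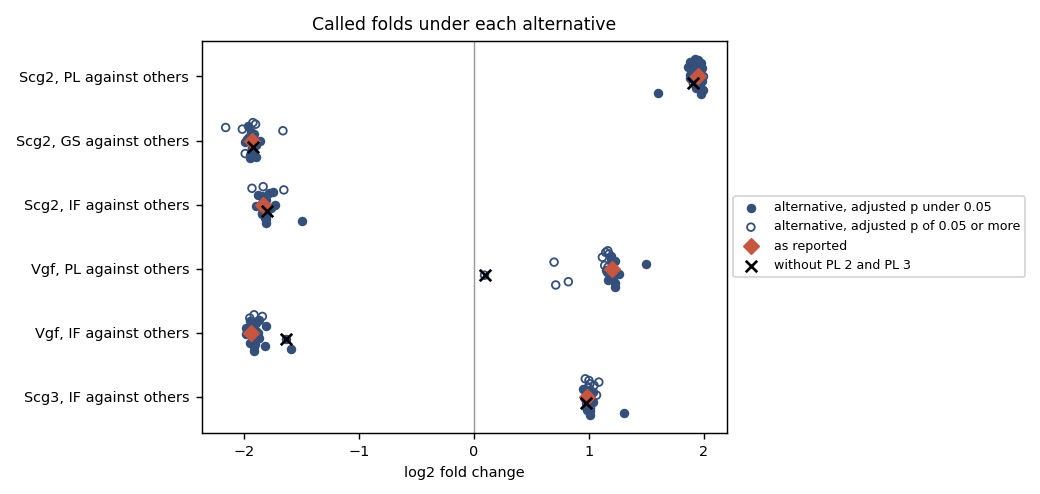
Log2 fold change (x axis) of the 6 called results for a pool against the other 4 pools, under each of 23 alternatives in scaling, tool, filter and libraries; diamonds are the values as reported, filled circles are alternatives with an adjusted p under 0.05, open circles the others, and crosses the values without PL 2 and PL 3. The 5 results on Scg2, Scg3 and on Vgf in IF keep their sign and stay near the reported value, while Vgf in PL drops to 0.09 without PL 2 and PL 3.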

How the data were processed

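Raw counts per gene and RPKM, both deposited by the authors, were taken for 15 libraries; reads were aligned with Bowtie 0.12.9 to mm9, per the submitters' processing notes, while the sources used here name neither a counting program nor gene models. In the authors' deposited table RPKM is count per length times a factor per library, and gene counts were 44.1% to 55.0% of the reads it divides by. The deposited columns with a value below 0 hold 16 such cells in 4 genes, which were left out. The authors' deposited lists for pairs of pools give a fold ratio and an adjusted p-value from DESeq, per the submitters' processing notes.

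Counts were tested with edgeR 4.0.16 (R 4.3.3): filterByExpr left 14340 genes, scaling was by TMM, and 1 quasi-likelihood fit held a coefficient for each pool. Benjamini-Hochberg adjustment ran over all genes of a comparison, with a threshold of 0.05, and an SE is the fold change divided by the square root of F. CPM in the text is TMM-scaled. DESeq2 1.42.0, limma 3.58.1 (voom), other scalings and filters, a replicate block and left-out libraries were alternatives. Scripts were tested on simulated data.

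The members and gene lists were chosen with earlier results of these data known. All 10 members are named; of each other list up to 6 genes that passed a test are named, by smallest p, and exceptions are marked in the text. Libraries of a pool are biological replicates per the labels, but animals are not tied across pools, so replicate numbers were not used to pair them. The upper limits given for a count of 0 cover counting error only. Each of the 15 pairs of libraries within a pool differed by more than sampling noise.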

Additional observations from a re-analysis of the deposited data

How the results depend on the processing

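Scg2 was called for any difference among the pools in all 23 alternatives (adjusted p 7.61e-15 to 0.00113). Direction was followed only for the called folds, those of Scg2, Vgf and Scg3, and none of these reversed. For the other members only the p-value for any difference was followed, which has no direction. Genes of the other lists were run only by DESeq2, limma voom and without PL 2 and PL 3. Members called for any difference numbered 2 as reported, where 1.31% of all genes were called. They numbered 3 by DESeq2 (with Scg3) and with no filter on low counts (with Chgb), with 8.69% and 6.97% of all genes called. With library sizes alone, by limma voom or with the replicate block 1 was called, the lost one being Vgf. The shares of all genes were then 0.739%, 1.8% and 0.662%. In TA, 1 was called instead of 0 with no filter on low counts (2.41% of all genes). In EDL it was 1 instead of 0 with library sizes alone, by limma voom or with no filter (0.174%, 0.265% and 1.16%). In PL, 1 was called instead of 2 with library sizes alone, by limma voom or with the replicate block. The shares of all genes were 1.03%, 1.19% and 0.997%, against 4.87% as reported. Without PL 2 and PL 3, PL is 1 library, and its differences are those given above. In GS, 0 were called instead of 1 by limma voom or with the replicate block (0.0837% and 0.0418% of all genes, against 0.126%). Member calls over the 10 pairs numbered 7 as reported, where 0.248% of all gene and pair combinations were called. They numbered 12 by DESeq2, for which that share was not counted. Leaving out each library in turn gave 1 to 3 members for any difference, where 0.441% to 8.08% of all genes were called. It gave 0 in TA (0.147% to 1.64% of all genes), 0 in EDL (0.0133% to 0.167%) and 1 to 2 in PL (2.41% to 21.4%). GS had 0 to 1 (0.0133% to 0.227%), IF 0 to 3 (0.207% to 2.22%), and the pairs 3 to 9, with no share counted. Each of the 3 IF libraries, when left out, ended the IF calls of Scg2, Vgf and Scg3. In those 3 fits 0.207% to 0.247% of all genes were called in IF, against 1.1% as reported. Same-numbered libraries did not deviate together (30 pairs, r -0.059 to 0.111), and 4 of 15 libraries were closest to their own number. With library sizes alone the median of all genes shifted to -0.37 in PL and 0.33 in IF on the log2 scale, and relative to that shift Scg2 and Vgf kept their directions. The cause of these changes was not tested. Pcsk1 had 0 reads in TA and in PL, so its level there is known only as an upper limit.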
